A study of Mus musculus with 5 samples.

Results

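The genes described here encode the machinery that joins and divides mitochondria and the 2 inner membrane proteases that cut the fusion protein OPA1. There are 10 of them among 22180 genes with a value: 3 for fusion (Mfn1, Mfn2 and Opa1), 5 for fission (Dnm1l, Fis1, Mff, Mtfp1 and Mief1) and 2 for the proteases (Oma1 and Yme1l1). They were chosen by known function, and each was read from the 1 probe set paired with its symbol alone. RNA came from bone marrow cells of mice on a C57BL/6 background that had been depleted of CD45-bearing cells and then selected for Ter119, a surface antigen of erythroid cells. The 2 wild-type (WT) arrays carry the genotype Polgtm1Lrsn wt/wt, and the 3 Polg mutant arrays carry Polgtm1Lrsn mt/mt, the allele of the mtDNA-mutator mouse, whose mitochondrial DNA polymerase lacks proofreading. All 5 samples share 1 breeding label, in which both parents were Atg7 flox/flox, the mother Epo-cre wt/wt and the father Epo-cre ki/wt. Every sample is thus from an Atg7 flox/flox cross, and the labels do not tell which offspring carried Cre. The series' design text calls the mice phlebotomized while the treatment field reads none, and the title calls the mutator mice aged with no age stated. The study asked which pathways differ between erythroid marrow cells of the 2 genotypes, and the question for these genes is whether fusion and fission transcripts shift against each other.

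Mitochondria fuse when the GTPases MFN1 and MFN2 join outer membranes and OPA1 joins inner membranes. They divide when the GTPase DRP1, the product of Dnm1l, is recruited from the cytosol by receptors on the outer membrane and constricts the organelle. YME1L1 cleaves OPA1 constitutively, whereas OMA1 is activated by loss of membrane potential and other stress, and cleavage by OMA1 stops inner membrane fusion. Erythroid cells build many mitochondria for heme synthesis and then remove all of them during maturation to red cells.

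On the deposited log2 scale all 3 fusion genes had nearly the same values in both genotypes. The fission genes Fis1 and Mff were higher on every Polg mutant array, by 0.34 and 0.30, and Dnm1l was lower on every one, at -0.26. None of the 10 members passed an adjusted p under 0.05 in limma's moderated test, adjusted over all genes by the method of Benjamini and Hochberg. None of the 22180 genes passed either (0% called, smallest adjusted p 0.0851). At an unadjusted limma p under 0.05 there were 3 members of 10, 2 higher and 1 lower, where 9.51% of all genes reached that level, 4.18% higher and 5.33% lower. That count depends on the moderation. In a limma fit of only the genes with 5 distinct values, the unadjusted p was 0.079 for Dnm1l and 0.061 for Mff. Without moderation the linear model gave 0.041 for Dnm1l, 0.070 for Fis1 and 0.060 for Mff. No overlap between groups was seen for 3 members that were higher and 1 that was lower, against 8.36% and 9.73% of all genes (18.1% in either direction). Nothing in the labels ties each array to its own animal, so the p-values rest on a spread between samples that could be technical only.

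A property of the deposited values limits what these genes can show. Exact ties between arrays affected 67.9% of all genes, and 1134 genes carried a single number across all 5. Among the members 7 of 10 held a tie between arrays: all 3 fusion genes, 2 of the 5 fission genes and both proteases. The nearly equal values of the fusion genes thus rest in part on ties. Only Dnm1l, Mff and Mief1 had 5 distinct values. A tie is a value of the table and was not taken as proof of equal RNA.

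**Figure D1:**
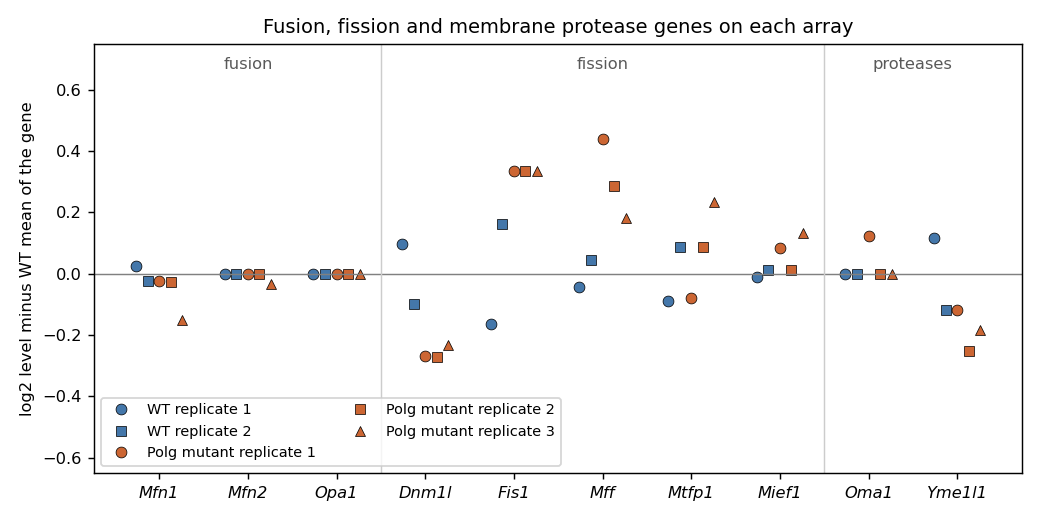
Log2 level of each gene on each array minus the mean of its WT arrays, for 3 fusion, 5 fission and 2 protease genes (vertical axis, log2 units). Blue symbols are the 2 WT arrays and orange symbols the 3 Polg mutant arrays. Fis1 and Mff lie above the WT arrays on all mutant arrays, Dnm1l lies below them, and Mfn2 and Opa1 stay at or near 0.

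Fis1, a tail-anchored outer membrane protein that takes part in fission, read 6.33 and 6.65 on the WT arrays and 6.83 on all 3 Polg mutant arrays. Every mutant value thus lay above both WT values, with the nearest pair 0.17 apart. The difference was 0.34 ± 0.11 (SE; 2 WT and 3 Polg mutant arrays) on the log2 scale, a fold of 1.26, with a limma adjusted p of 0.490. Without WT replicate 1 the difference was 0.17 and without WT replicate 2 it was 0.50, with limma adjusted p of 0.0125 and 0.0189. In those fits the spread within groups comes only from the mutant arrays, whose Fis1 values are identical, and the remaining WT array is taken to vary like them. Over all 12 alternatives that gave a value for Fis1 the adjusted p ran from 0.0125 to 0.700.

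Mff, the tail-anchored receptor that is the main recruiter of DRP1 in many cells, read 10.42 and 10.51 in WT. The mutant arrays read 10.91, 10.75 and 10.65. All mutant values were above both WT values, and the nearest pair was 0.14 apart. The log2 difference was 0.30 ± 0.09 (SE), a fold of 1.23 with a 95% confidence interval of the log2 difference from 0.037 to 0.57, and the limma adjusted p was 0.458. Leaving out any 1 array kept it between 0.23 and 0.36.

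Dnm1l, the gene of the fission GTPase itself, went the other way. Its values were 9.86 and 9.67 in WT against 9.50, 9.49 and 9.53 in the Polg mutant, so that the mutant arrays lay close together below both WT arrays. The log2 difference was -0.26 ± 0.07 (SE), a fold of 0.836, with a limma adjusted p of 0.387. It was -0.16 when WT replicate 1 was left out and -0.36 when WT replicate 2 was, and the latter fit passed the threshold (limma adjusted p = 0.0418). There the spread within groups comes only from the mutant arrays, whose SD was 0.021, against 0.14 between the WT arrays. The range of adjusted p over 13 alternatives was 0.0418 to 0.700. In such bulk RNA, fewer cells of a type and less RNA per cell cannot be told apart.

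Because Fis1 and Mff were higher and Dnm1l lower without overlap, the stretches before their start sites are shown for comparison. Each line gives the 250 bases before the most upstream of the starts given for it in a RefSeq promoter table (GRCm38.p6), which can lie inside the gene's full record, 5′ to 3′ on the gene's strand, with capitals marking matches to GGGCGG, the core recognised by SP and KLF family factors, on either strand. They lie at chr5:136953025-136953274 (plus strand), chr1:82724640-82724889 (plus strand) and chr16:16359032-16359281 (minus strand).
Fis1: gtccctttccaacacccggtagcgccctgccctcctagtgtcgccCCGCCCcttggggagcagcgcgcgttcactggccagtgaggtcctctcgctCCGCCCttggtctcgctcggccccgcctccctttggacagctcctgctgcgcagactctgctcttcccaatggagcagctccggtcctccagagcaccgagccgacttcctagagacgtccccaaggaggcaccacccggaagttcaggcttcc
Mff: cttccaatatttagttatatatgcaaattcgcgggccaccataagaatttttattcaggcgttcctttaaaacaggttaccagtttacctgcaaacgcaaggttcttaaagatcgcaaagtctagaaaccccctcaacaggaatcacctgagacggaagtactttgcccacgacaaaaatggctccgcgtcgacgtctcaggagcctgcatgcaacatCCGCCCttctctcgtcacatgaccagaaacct
Dnm1l: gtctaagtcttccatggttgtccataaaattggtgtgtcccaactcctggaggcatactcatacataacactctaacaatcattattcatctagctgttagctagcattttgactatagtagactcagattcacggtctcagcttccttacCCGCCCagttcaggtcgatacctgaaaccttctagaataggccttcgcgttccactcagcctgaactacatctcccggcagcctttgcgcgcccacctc
Fis1 held 2 matches, and Mff and Dnm1l 1 each. All 10 members matched a listed start, and GGGCGG was found before 9 of them, all but Mtfp1, against 32.7% of 32851 windows of the same length. Those windows were not matched for GC content, which ran from 45.6% for Mtfp1 to 69.6% for Mief1 among the members. The core of nuclear respiratory factor 1, searched as GCGCANGCG and present in 5.16% of windows, was matched before Opa1, on both strands of 1 site, and before Oma1. No member window held the ATF4 motif TGATGNAA, which 3.45% of windows hold. The GATA factor motif AGATAA, in 9.99% of windows, was not in them either. Motifs were searched on both strands, matches of different motifs did not overlap in the member windows, and a match is a description of letters.

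Mief1 and Mtfp1 complete the fission genes. Mief1 encodes MiD51, an outer membrane receptor of DRP1, and read 7.17 and 7.19 on the WT arrays and 7.26, 7.19 and 7.31 on the mutant arrays. The mutant arrays counted as above WT only by 4e-05 at the nearest pair, and the difference of 0.08 ± 0.04 (SE) had a limma adjusted p of 0.638. It was 0.048 without Polg mutant replicate 3. Mtfp1, an inner membrane protein that promotes fission and whose translation depends on mTORC1, read 7.21 and 7.39 in WT. Its mutant values of 7.22, 7.39 and 7.53 overlapped these. The difference was 0.08 ± 0.12 (SE, limma adjusted p = 0.788), and it ranged from -0.0074 with WT replicate 1 left out to 0.17 with WT replicate 2 left out.

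Mfn1, 1 of the mitofusin genes, read 7.53 and 7.48 on the WT arrays and 7.48, 7.48 and 7.35 on the mutant arrays. The lowest value was that of Polg mutant replicate 3, and WT replicate 2 equalled Polg mutant replicate 1. The log2 difference was -0.07 ± 0.05 (SE; limma adjusted p = 0.652), with a 95% confidence interval from -0.22 to 0.084. It was -0.026 without Polg mutant replicate 3 and -0.043 without WT replicate 1. Mfn2, the second mitofusin, which also tethers mitochondria to the endoplasmic reticulum, read 7.45 on 4 arrays and 7.42 on Polg mutant replicate 3. Its difference of -0.01 had a confidence interval from -0.068 to 0.046 and was 0.0025 after median centring. Opa1 read 7.80 on all 5 arrays, so no difference could be estimated beyond 0, and limma's interval of -0.043 to 0.043 rests only on the variance borrowed from other genes.

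**Figure D2:**
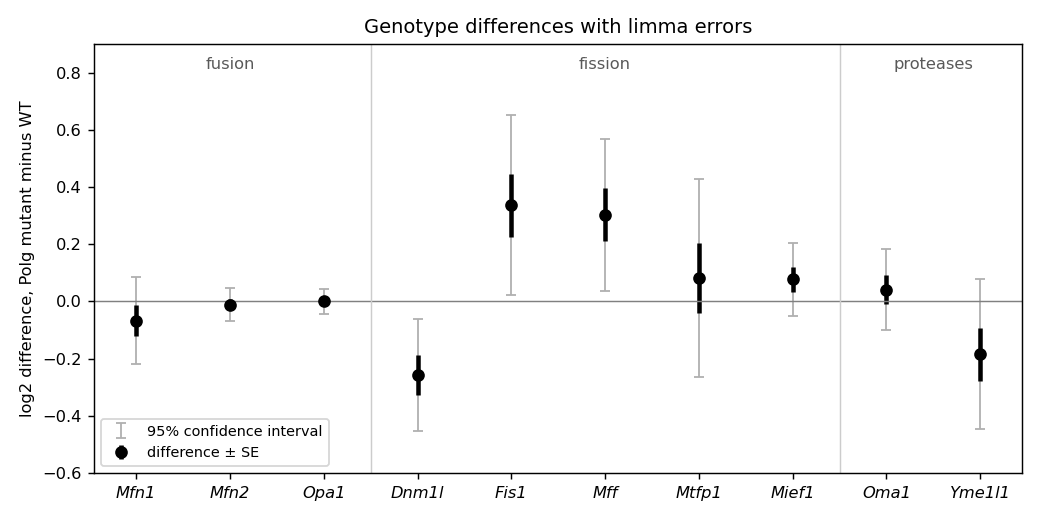
Log2 difference between Polg mutant and WT (vertical axis, log2 units) for each of the 10 genes, with 2 WT and 3 Polg mutant arrays. Thick bars are the SE of limma's moderated test and thin bars the 95% confidence interval, which leaves out 0 for Fis1, Mff and Dnm1l before adjustment over all genes.

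Fusion was set against fission per array by taking each gene relative to its WT mean, averaging the genes of each arm and subtracting the fission mean from the fusion mean. The fusion arm stood at 0.0080 and -0.0080 in WT and at -0.0080, -0.0093 and -0.061 in the mutant. The fission arm stood at -0.042 and 0.042 in WT and at 0.10, 0.090 and 0.13 in the mutant. Fusion minus fission was 0.050 and -0.050 in WT against -0.11, -0.099 and -0.19 in the mutant, a difference of -0.13 with a pooled SD between replicates of 0.058. All mutant arrays lay below both WT arrays. This value is a description with no test, because the genes were chosen with results of these data known. It also joins genes of opposite direction, Fis1 and Mff with Dnm1l, so the genes of the fission arm did not share 1 direction. With 5 further genes listed under fusion and 7 listed under fission added to the arms, the difference was -0.023. The 7 added fission genes had a median difference of -0.07, against 0.08 for the 5 fission members. The 5 added fusion genes had a median of -0.01, as did the 3 fusion members. The higher level of the fission arm was thus not seen in the median of the added fission genes. The difference of -0.023 also depends on the sorting of the genes. Opa3, listed under fusion, had a difference of -0.14, and its role in these cells was not tested.

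**Figure D3:**
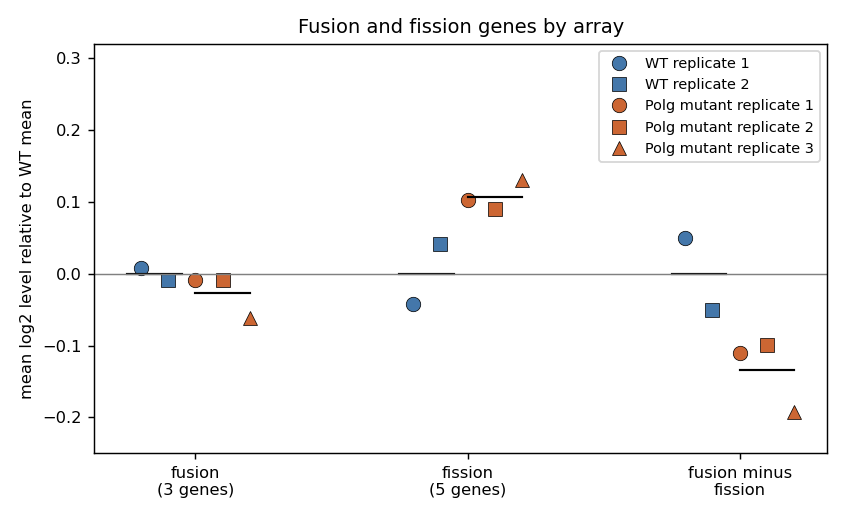
Mean log2 level relative to WT (vertical axis, log2 units) of the 3 fusion genes, the 5 fission genes and the difference between them on each array, with blue for WT, orange for Polg mutant and a horizontal line at each group mean. The fusion minus fission values of the mutant arrays, -0.19 to -0.099, lie below both WT values.

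Of the proteases, Oma1 read 5.98 on 4 arrays and 6.10 on Polg mutant replicate 1. Its level was above a log2 of 6 on 1 array only and was not shown to be above background. The difference was 0.04 ± 0.05 (SE, limma adjusted p = 0.754), and it was 0 without Polg mutant replicate 1. Yme1l1, the constitutive OPA1 protease, read 9.38 and 9.15 in WT and 9.15, 9.01 and 9.08 in the mutant. WT replicate 2 equalled Polg mutant replicate 1, so the groups met at their edges, and the difference was -0.18 ± 0.09 (SE, limma adjusted p = 0.638). It was -0.067 when WT replicate 1 was left out and -0.30 when WT replicate 2 was. Oma1 minus Yme1l1, each relative to its WT mean, was -0.12 and 0.12 in WT and 0.24, 0.25 and 0.18 in the mutant. The difference of 0.23 became 0.11 in the absence of WT replicate 1 and 0.34 in the absence of WT replicate 2. Dele1, whose product is cleaved by OMA1 and activates the kinase HRI under mitochondrial stress, read 8.34 and 8.13 in WT and 8.45, 8.36 and 8.34 in the mutant, with WT replicate 1 equal to Polg mutant replicate 3. Eif2ak1, the gene of HRI, differed by -0.18 ± 0.11 (SE, limma adjusted p = 0.638) with overlap between groups.

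Other genes that act with these members were read from lists of known function. Of 46 symbols 42 were measured, and 4 were higher and 7 lower without overlap, where all genes gave 8.36% and 9.73%. At an unadjusted limma p under 0.05 there were 2 higher and 3 lower, where all genes gave 4.18% and 5.33%, and 0 passed the threshold over all genes. Their median difference was 0.02, against 0.02 for the 10 members and 0 for all genes.

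Among 5 other genes listed under fusion every gene overlapped between groups. Pld6, a phospholipase of the outer membrane, differed by 0.04, Stoml2, a scaffold protein of the inner membrane, by 0.06 and the outer membrane protein gene Opa3 by -0.14. Of 7 other fission factors measured, 2 were lower without overlap (9.73% of all genes): Spire1, an actin nucleator with an isoform on mitochondria, at -0.14 ± 0.05 (SE, limma adjusted p = 0.515) and Dnm2, a dynamin of endocytosis also linked to division, at -0.12. Mtfr2, a fission regulator, had the lowest difference of the list at -0.39 ± 0.23 (SE), with overlap between groups.

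Of 4 measured ubiquitin regulators of the outer membrane, 1 was higher and 1 lower without overlap (18.1% of all genes in either direction), and 0 passed the threshold. Marchf5, a ubiquitin ligase acting on DRP1 and its receptors, read 11.30 and 11.27 in WT and 11.08, 11.12 and 10.92 in the mutant. Its difference was -0.24 ± 0.07 (SE, limma adjusted p = 0.446). Pink1, the kinase that marks damaged mitochondria for removal, was higher without overlap, from 9.21 and 9.06 in WT to 9.58, 9.42 and 9.31, with a difference of 0.30 ± 0.11 (SE, limma adjusted p = 0.532). Mul1, another ligase of the outer membrane, differed by -0.10 with overlap.

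Of 9 measured genes for other inner membrane proteases and prohibitins, 2 were higher and 1 lower without overlap, against 18.1% of all genes in either direction. Phb2, a prohibitin that forms the ring holding these proteases, differed by 0.15 ± 0.03 (SE, limma adjusted p = 0.268), from 9.86 and 9.84 to 9.98, 9.98 and 10.04. Afg3l2, a subunit of the matrix-facing AAA protease, was lower at -0.21, and Immp1l, a signal peptidase subunit, differed by 0.05. The complex that shapes cristae junctions, MICOS, was measured with its outer membrane partners in 11 genes. Its subunit gene Micos13 read 6.33 and 6.79 in WT and 7.33, 7.00 and 7.12 in the mutant, a difference of 0.59 ± 0.19 (SE, limma adjusted p = 0.477). Apool, a second subunit gene, differed by 0.13 with overlap, and Dnajc11, a partner, was lower without overlap at -0.18. Of the 11 genes 1 was higher and 1 lower without overlap, against 18.1% of all genes in either direction.

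Genes of transport along microtubules included 2 of 4 that were lower without overlap, against 9.73% of all genes. Trak2, an adaptor that links mitochondria to motor proteins, read 12.88 and 12.58 in WT and 12.38, 12.41 and 12.40 in the mutant, a difference of -0.33 ± 0.10 (SE, limma adjusted p = 0.453). Rhot2, an outer membrane GTPase of the same complex, was lower at -0.15, whereas Trak1 differed by 0.28 with overlap.

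A list of general mitochondrial genes (import genes, porins, a matrix chaperone, Tfam, and respiratory and matrix genes) served as a comparison. Of 19 measured, 9 were higher and 0 lower without overlap (8.36% and 9.73% of all genes), and 0 passed the threshold. Their median difference was 0.15, against -0.01 for the fusion genes and 0.08 for the fission genes. Differences in the list ran from -0.10 to 0.65, and its porin genes overlapped between groups. Hspd1, a matrix chaperone, differed by 0.65 ± 0.03 (SE, limma adjusted p = 0.106), Tomm70a, an import receptor, by 0.36 ± 0.03 (limma adjusted p = 0.193) and Tomm20, another import receptor, by 0.65 ± 0.09 (limma adjusted p = 0.238). Whether the fusion genes differ from these as a group was not tested.

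**Figure D4:**
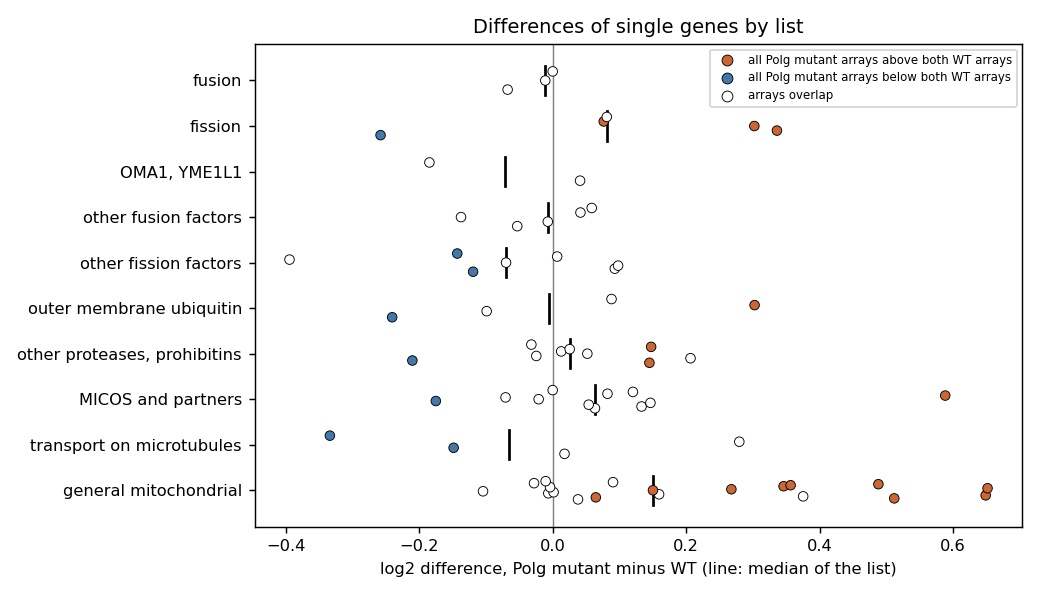
Log2 difference between Polg mutant and WT (horizontal axis, log2 units) of each measured gene by list, with a vertical line at the list's median. Orange points are genes higher on every mutant array, blue points genes lower on every mutant array and white points genes whose groups overlap. The 3 fusion genes lie near 0, the fission genes on both sides, and 9 of 19 general mitochondrial genes are orange.

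The label was checked against markers. The 10 measured erythroid markers averaged 11.9 to 12.3 per array, against array medians of 5.10 to 5.13. These markers averaged 12.33 and 12.14 in WT and 11.94, 12.01 and 11.98 in the mutant. Of these, 9 of 10 were lower without overlap, against 9.73% of all genes. Neutrophil markers, 12 genes, averaged 8.63 and 7.47 in WT and 8.91, 9.39 and 7.71 in the mutant, all with overlap. The 5 measured megakaryocyte markers averaged 6.87 and 7.71 in WT and 6.71, 6.95 and 6.70 in the mutant. Their differences ran from -1.36 to 0.03. The lowest was that of Gp9, a platelet gene and the 1 of the 5 without overlap (18.1% of all genes in either direction). B cell markers averaged 5.76 and 5.24 in WT against 5.344, 5.004 and 4.793 in the mutant, with overlap, and all 7 measured had a negative difference (median -0.29). Macrophage markers averaged 5.04 to 5.15 and T and NK cell markers 4.80 to 5.04. Of the 8 T and NK cell markers 1 was lower without overlap (9.73% of all genes), and all 12 macrophage markers overlapped. The part of these cell type markers in the differences of Fis1, Mff and Dnm1l was not tested. Polg read 6.97 on every array, which does not check the labels, since the levels of a transcript need not show which allele it comes from.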

How the data were processed

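The deposited table holds log2 values of 41345 probe sets on 5 single-colour arrays, 1 column each. RMA and Partek 6.5 are named, with no role or order, per the submitters' processing notes. The genome build and the probe annotation used to make the values are not stated there. Names came from the annotation of the array platform: 23521 had 1 symbol, 1814 several and 16010 none. The brightest single-symbol probe set was kept for each gene, with no filter on dim probe sets. No scanner file was analysed here, so no probe set could be shown to exceed background, and the number of arrays limits the precision.

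Genotype was the single term of a limma 3.58.1 model in R 4.3.3 over all genes and arrays, with empirical Bayes moderation and no trend. The model was also run on simulated normal values without ties, with spreads drawn from genes with 5 distinct values. That run does not show how the model behaves on tied values. Tests were two-sided with Benjamini-Hochberg adjustment. No overlap means that all mutant arrays lay above, or all below, both WT arrays. limma's prior SD and prior degrees of freedom were 0.0376 and 0.730 for all genes, and 0.170 and 3.17 for the 7112 genes with 5 distinct values. All 10 members are named, as are up to 3 genes of smallest p in each other pathway list. Gp9 was chosen after its values were seen. The members and lists were chosen with earlier results of these data known. Alternatives covered normalization, dim genes, probe sets, ties, moderation, a replicate block and leaving out each array. Phb1 and 10 other list symbols were not analysed here.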

Additional observations from a re-analysis of the deposited data

How the results depend on the processing

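Of 121 member results under alternatives, 118 kept their side of the threshold. In 107 both values differed from 0, and 105 of these kept their direction. The other 14 had a value of 0 and no direction to compare. Mfn2 turned to 0.0025 after median centring, and leaving out an array gave -0.0074 to 0.17 for Mtfp1. The cause was not tested. Fis1 passed without either WT array and Dnm1l without WT replicate 2. The count of all genes past the threshold was 0 in both directions. It was 8 higher and 1 lower with quantile normalization, 6 and 5 among genes above a log2 of 6, and 4 and 1 without moderation. Among untied genes it was 73 and 41, where fewer genes are tested and limma's prior SD is 0.170 in place of 0.0376. Leaving out an array gave 0 to 713 higher and 0 to 1068 lower, with the high counts when a WT array was left out. Of the members that these fits held, 3 among untied genes, 9 among genes above a log2 of 6 and 9 without moderation, none passed. Fusion minus fission ran from -0.18 to -0.084 with an array left out and was -0.023 with further factors added. Oma1 minus Yme1l1 ran from 0.11 to 0.34. Whether the replicate numbers pair the samples was not settled. Deviations from the group means over 7112 untied genes correlated at 0.22 for replicate 1 and -0.26 for replicate 2. With 2 WT arrays the WT deviations mirror each other, so these correlations are not separate checks and cannot decide it. The fit with the replicate block, in which Polg mutant replicate 3 has no partner and drops out of the contrast, called 0 genes in both directions and gave -0.10 for fusion minus fission and 0.25 for Oma1 minus Yme1l1.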
